A study of Mus musculus with 9 samples.

Results

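The 39 *Hox* genes of the mouse were examined in whole kidneys at E15.5, a stage when nephrons are forming. Members were the rows of the deposited table whose gene name, split at commas, was *Hox* followed by a cluster letter (a to d) and a number, and 39 of the 24138 rows met this rule, 11 in the *Hoxa*, 10 in the *Hoxb*, 9 in the *Hoxc* and 9 in the *Hoxd* cluster. Bulk RNA-seq had been performed on 9 libraries, 3 of each of 3 genotypes, from 3 kidneys of each genotype. Homozygous kidneys were Foxd1GC/+;Ntn1fl/fl, heterozygous kidneys were Foxd1GC/+;Ntn1fl/+, and wildtype kidneys were Ntn1fl/fl and carried no Cre. *Foxd1*GC is a GFP-Cre insertion at *Foxd1*, a transcription factor gene of the stromal progenitors, so recombination of the floxed *Ntn1* alleles was directed to the stroma and its descendants and not to the other kidney cells. Homozygous and heterozygous kidneys also shared the loss of 1 intact *Foxd1* allele, and every genotype carried floxed *Ntn1*. The study used heterozygous kidneys as the control of homozygous ones, and homozygous against heterozygous is the main comparison here.

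*Hox* genes encode homeodomain transcription factors. They lie in clusters, and genes in the same place in different clusters are paralogs that share a number. Low numbers are expressed from more anterior levels of the body axis, and high numbers from more posterior levels. In the kidney, the paralogs numbered 11 are required for the metanephric mesenchyme to induce the ureteric bud and to express *Six2* and *Gdnf*, and paralogs numbered 10 act in the stroma. Paralogs with numbers 4 to 8, here called central, and those numbered 1 to 3, called anterior, are known mostly for patterning of the neck and trunk, whereas those numbered 9 to 13 are called posterior.

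*Ntn1*, which encodes the secreted guidance molecule netrin 1, was listed at 26.1, 28.9 and 17.8 FPKM (fragments per kilobase of transcript, scaled to the fragments mapped in the library) in wildtype kidneys, at 12.3, 12.0 and 16.5 in heterozygous and at 10.8, 16.5 and 11.0 in homozygous kidneys. All 6 kidneys with Cre were thus below the 3 without it, and the heterozygous and homozygous values overlapped, so the level of *Ntn1* did not tell these genotypes apart. *Foxd1* was listed at 33.7, 33.4 and 25.8 FPKM in wildtype, 21.7, 20.2 and 21.5 in heterozygous and 24.8, 22.5 and 24.3 in homozygous kidneys, again lower in all kidneys with Cre. Markers of nephron progenitors, stroma, ureteric bud, podocytes and proximal tubule were present in all 9 libraries. Summed FPKM of 4 nephron progenitor markers ranged from 166 to 265 and that of 4 stromal markers from 346 to 466. Heterozygous replicate 2 stood apart in its liver markers, whose summed level was 601 FPKM against a median of 33.7 over the 9 libraries, with *Alb*, which encodes albumin, at 244 FPKM. That library also held the highest summed level of 4 erythroid markers (3422 FPKM, median 2141), of 4 ureter and smooth muscle markers (123 FPKM, median 79.1) and of 4 spinal nerve and ganglion markers (9.26 FPKM, median 4.70). Of the last set, the neuronal tubulin gene *Tubb3* was at 4.998 FPKM there and at most 1.37 elsewhere, and *Elavl4*, the most abundant, was at 3.17, within the range of the other libraries. Heterozygous replicate 3 stood apart in 3 skeletal muscle markers, summing to 14.7 FPKM against a median of 1.01, with *Myog* at 6.63. Markers of the adrenal gland summed to at most 1.02 FPKM and those of the gonad to at most 0.651. For the genes with the smallest p-values and for *Hoxa11* and *Hoxd11*, fold changes that use heterozygous kidneys are therefore also given without heterozygous replicate 2 or 3.

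The *Hox* genes together were listed at 756±34.3 FPKM (mean±s.d., n=9 libraries), from 709 in homozygous replicate 2 to 810 in heterozygous replicate 1. FPKM is a level per transcript length, so levels of different genes can be set side by side. The *Hoxb* cluster contributed 36.2% of this sum (274 FPKM, range 256 to 306), *Hoxd* 27.5% (208, range 193 to 224), *Hoxa* 26.5% (200, range 187 to 211) and *Hoxc* 9.78% (74.0, range 65.7 to 80.5). *Hoxc* was below the other clusters in every library, its highest value of 80.5 FPKM lying under the lowest of *Hoxa*, 187. Posterior genes made up 47.7% of the sum, central genes 38.7% and anterior genes 13.6%. *Hoxa3* shares a genomic span with *Hoxa4* to *Hoxa6*, and *Hoxd3* with *Hoxd4*, so the division between central and anterior is uncertain.

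**Figure D1:**
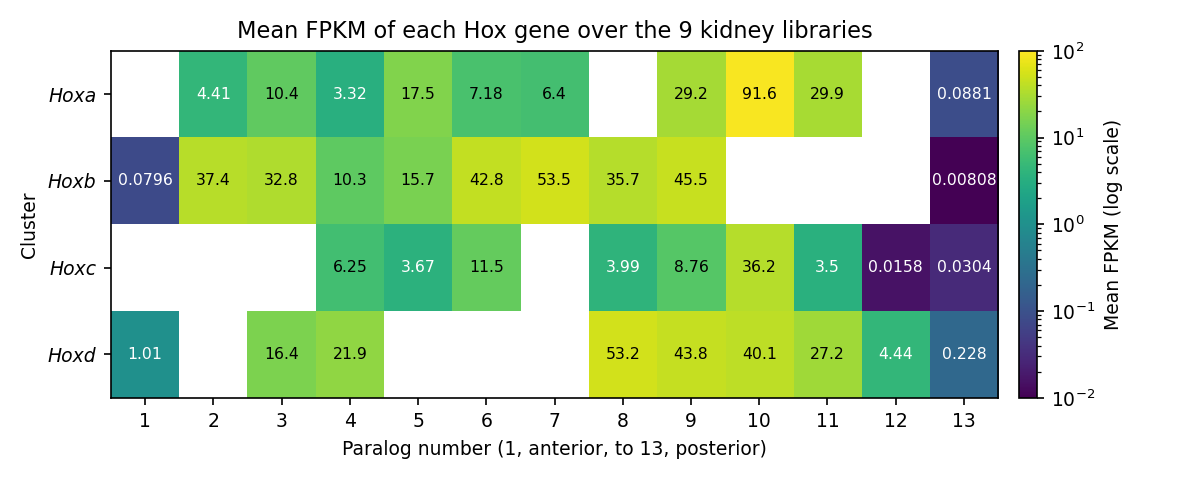
Mean FPKM over the 9 libraries for each *Hox* gene (color, log scale, with the value printed in each square), by cluster (rows) and paralog number (columns); white squares are positions with no gene or with one not shown. *Hoxa10* is highest at 91.6 FPKM, all 4 genes numbered 13 lie below 0.3 FPKM, and the *Hoxb* row stays above 10 FPKM from numbers 2 to 9. Separate values of genes that share a span (*Hoxa3* to *Hoxa6*, *Hoxb5* with *Hoxb6*, *Hoxd3* with *Hoxd4*) are uncertain.

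*Hoxa10* was the most abundant *Hox* gene by a clear margin. Its 9 values were 94.2, 84.5 and 93.9 FPKM in wildtype, 96.7, 89.1 and 90.6 in heterozygous and 93.9, 89.2 and 92.1 in homozygous kidneys. They overlapped between genotypes and varied least of the 25 members with a mean of at least 5 FPKM, with a coefficient of variation of 4.01%, and their mean of 91.6 was 1.71 times that of the next gene. The highest members of the other clusters were *Hoxb7*, *Hoxd8* and *Hoxc10*. *Hoxb7*, a gene of the ureteric bud whose promoter is widely used to drive transgenes there, was listed at 46.0, 56.3 and 57.4 FPKM in wildtype, 61.4, 55.2 and 49.6 in heterozygous and 45.7, 53.7 and 56.6 in homozygous kidneys. *Hoxd8* was listed at 58.8, 51.0 and 55.8 FPKM in wildtype, 53.6, 51.7 and 46.7 in heterozygous and 50.6, 58.5 and 52.1 in homozygous kidneys. Neither gene separated any pair of genotypes, and their means (53.5 and 53.2 FPKM) did not differ beyond their spread.

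Below *Hoxa10*, *Hoxb7* and *Hoxd8*, the mean levels ran through *Hoxb9* (45.5 FPKM), *Hoxd9* (43.8), *Hoxb6* (42.8), *Hoxd10* (40.1), *Hoxb2* (37.4), *Hoxc10* (36.2), *Hoxb8* (35.7) and *Hoxb3* (32.8) to *Hoxa11* (29.9), *Hoxa9* (29.2), *Hoxd11* (27.2) and *Hoxd4* (21.9). Next came *Hoxa5* (17.5), *Hoxd3* (16.4), *Hoxb5* (15.7), *Hoxc6* (11.5), *Hoxa3* (10.4), *Hoxb4* (10.3), *Hoxc9* (8.76), *Hoxa6* (7.18), *Hoxa7* (6.40) and *Hoxc4* (6.25). Under the study's minimum for expression of 5 FPKM were *Hoxd12* (4.44), *Hoxa2* (4.41), *Hoxc8* (3.99), *Hoxc5* (3.67), *Hoxc11* (3.50), *Hoxa4* (3.32), *Hoxd1* (1.01) and *Hoxd13* (0.228), among others. *Hoxa13*, *Hoxb1*, *Hoxc13*, *Hoxc12* and *Hoxb13* had means below 0.1 FPKM, and all of these but *Hoxb1* were listed at 0 in at least 1 library. Of the 38 pairs of neighbors in this order, 33 overlapped in their ranges over the 9 libraries. The places of 8 genes that share 3 spans of the table (*Hoxa3* to *Hoxa6*, *Hoxb5* with *Hoxb6*, and *Hoxd3* with *Hoxd4*) are uncertain. The 5 steps that exceeded the spread included those from *Hoxa10* to *Hoxb7*, from *Hoxc4* to *Hoxd12* and from *Hoxa4* to *Hoxd1*. Across the 9 libraries the 25 members above the minimum had a median coefficient of variation of 11.3%, against 11.7% for the 9978 loci of the table with such a mean, and the widest was that of *Hoxa6*, 27.3%.

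Summed over clusters, the genes numbered 1 reached 1.64 FPKM and those numbered 10 reached 168, which was 22.2% of all *Hox* FPKM from 3 genes. From number 2 to number 9 the sums were 41.8, 59.6, 41.7, 36.8, 61.6, 59.9, 92.9 and 127 FPKM, which did not rise at every step and was lowest at number 5. Each sum rests on 2 to 4 genes. The sum was 60.6 FPKM at number 11, 4.46 at number 12 and 0.355 at number 13. Every library had the sum of number 10 above that of number 9 and the sum of number 11 above that of number 12. Genes numbered 13 were below those numbered 10 and 11 in the *Hoxa*, *Hoxc* and *Hoxd* clusters, the *Hoxb* cluster having no gene with the numbers 10 to 12. *Hoxa13* and *Hoxd13*, which act in the distal limb, genital tubercle and hindgut, had group means of at most 0.196 and 0.300 FPKM.

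**Figure D2:**
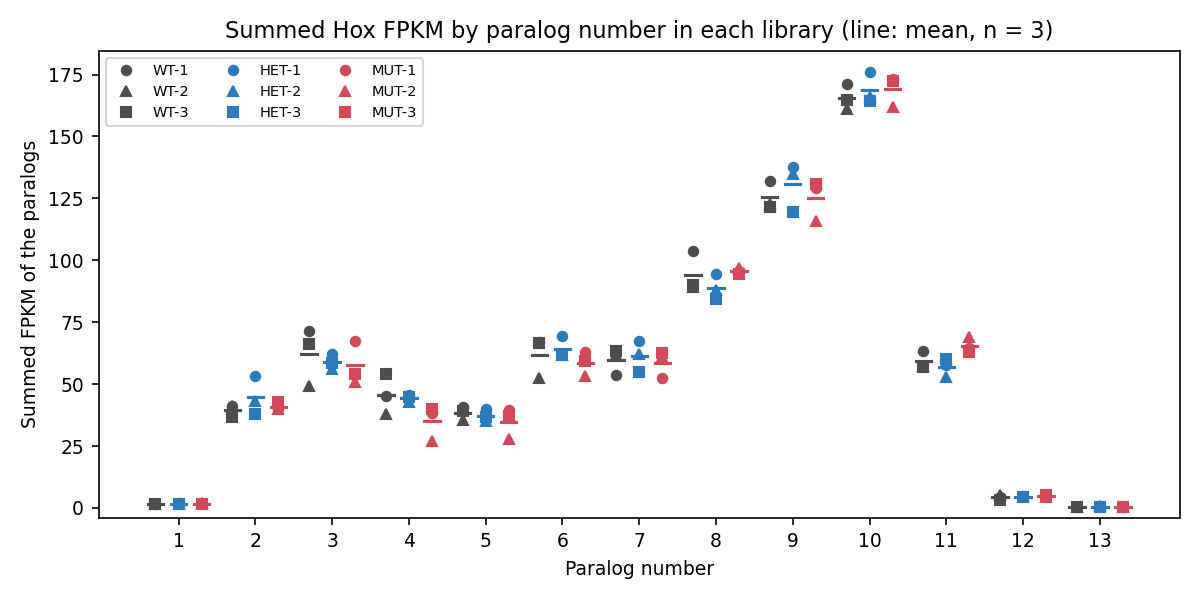
Summed FPKM of the paralogs (y axis, linear) by paralog number (x axis) in each of the 9 libraries, colored by genotype (WT, wildtype; HET, heterozygous; MUT, homozygous), with marker shape giving the replicate and short lines the group means (n=3). The sums are highest at number 10 in every library. At number 4 homozygous replicate 2 is lowest at 27.1 FPKM, and homozygous and heterozygous kidneys do not overlap at numbers 4, 8, 11 and 13. Of single loci whose mean reaches 5 FPKM in one or both genotypes, 9.69% do not overlap. Against wildtype kidneys, homozygous and heterozygous kidneys are each without overlap at number 13 alone, where no library exceeds 0.618 FPKM. Of loci above 0 but under 5 FPKM, 4.92% are lower in homozygous and 4.85% higher in heterozygous than in wildtype kidneys without overlap.

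The members with numbers close to 11 were examined first, given their known role in the metanephric mesenchyme. *Hoxa11* was listed at 27.9, 30.0 and 25.5 FPKM in wildtype, 31.6, 28.5 and 27.8 in heterozygous and 30.2, 35.3 and 31.9 in homozygous kidneys. The homozygous values all lay above the wildtype ones and overlapped the heterozygous ones. *Hoxd11* was listed at 32.0, 23.7 and 28.8 FPKM in wildtype, 22.1, 20.9 and 28.6 in heterozygous and 30.8, 31.0 and 27.0 in homozygous kidneys, with overlap between every pair of genotypes. *Hoxc11* was listed at 3.65, 3.66 and 2.52 FPKM in wildtype, 4.09, 3.67 and 3.62 in heterozygous and 3.51, 2.75 and 4.05 in homozygous kidneys, also overlapping throughout. Its mean of 3.50 FPKM was below every value of *Hoxa11* and *Hoxd11*. The sum of the 3 paralogs was 65.5±3.13 FPKM in homozygous kidneys (n=3), 57.0±3.57 in heterozygous and 59.3±3.71 in wildtype kidneys. Its lowest homozygous value, 62.9, exceeded the highest heterozygous value, 60.0, and was below wildtype replicate 1 at 63.5. Of the 13 paralog sums, 4 did not overlap between homozygous and heterozygous kidneys. Of single loci whose mean reached 5 FPKM in one or both genotypes, 9.69% did not. Numbers 8 and 11 were higher and numbers 4 and 13 lower in homozygous kidneys, with number 8 apart by a small gap (94.5 against 94.3 FPKM). Against wildtype kidneys only number 13 did not overlap, lower in homozygous and higher in heterozygous kidneys. Of loci reaching 5 FPKM, 2.65% and 3.21% did not overlap in these comparisons, but the sum of number 13 was at most 0.618 FPKM. Of loci above 0 but under the minimum, 4.92% were lower and 3.4% higher in homozygous against wildtype kidneys. In heterozygous against wildtype kidneys 3.2% were lower and 4.85% higher. In homozygous against heterozygous kidneys 6.55% of low loci were lower.

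Genotypes were compared with limma on log2(FPKM+1) over all loci whose mean reached 5 FPKM in one or both genotypes, with the replicate number as a block and p-values adjusted by the Benjamini-Hochberg method over all loci tested. Fold changes on this scale are slightly smaller than ratios of FPKM for low genes. In each comparison 25 *Hox* genes were tested and 14 were under the minimum. Whole kidneys were used, so fewer cells of a type and less RNA per cell cannot be told apart. The homozygous libraries enter both of their comparisons, and the heterozygous and wildtype libraries likewise enter 2 each, so the comparisons are not independent.

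In homozygous against heterozygous kidneys, which asked what loss of the second stromal *Ntn1* allele did, no *Hox* gene passed the test. Central genes of 2 clusters had the largest differences downward, *Hoxd4* (ratio of mean FPKM 0.706) and *Hoxb4* (0.756), with the neighboring anterior gene *Hoxd3* (0.747). *Hoxd11* had the largest upward (1.24). These ranks are among the 25 tested genes. A ratio of means past 1.2-fold, the study's own fold minimum, was reached by 4 of them downward (with *Hoxa9*) and 1 upward, where 5.36% and 7.29% of all loci reached it. No locus of the 10081 tested passed an adjusted p of 0.05 (background 0%), with 0.237 the smallest adjusted p of all loci in limma and 0.869 the smallest among *Hox* genes. At an unadjusted p under 0.05, 3 of the 25 *Hox* genes were lower and 0 were higher, against 1.89% of all loci lower and 3.01% higher. *Hoxd3* and *Hoxd4* have 1 span in the table and uncertain separate levels, so the 3 genes with such a p lie in 2 spans, the 4 past 1.2-fold downward in 3 and the 25 tested in 21. The 3 libraries of each genotype did not overlap for 4 *Hox* genes that were lower in homozygous kidneys (*Hoxa9*, *Hoxd4*, *Hoxc6* and *Hoxb4*) and 1 that was higher (*Hoxc10*), where the shares over all tested loci were 4.5% and 5.19%. The log2 fold changes of the 25 genes had a median of -0.03 beside -0.02 over all loci, with 11 above and 14 below 0. Of all 10081 loci tested, 4631 were above 0. By region the medians were -0.01 for 4 anterior, -0.07 for 12 central and -0.01 for 9 posterior genes.

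Some markers of stroma and of smooth muscle separated the same genotypes. Summed FPKM of the 4 stromal markers was 446, 463 and 466 in homozygous, 396, 381 and 395 in heterozygous and 432, 425 and 346 in wildtype kidneys, so every homozygous value lay above every other. The most abundant of them, *Col1a1*, which encodes a chain of type I collagen, had a ratio of means of 1.46 (limma unadjusted p 0.00626, adjusted p 0.933) and did not overlap between homozygous and heterozygous kidneys. Without *Col1a1* the stromal sums overlapped, at 205, 249 and 234 FPKM in homozygous and 243, 237 and 222 in heterozygous kidneys. *Tcf21*, a transcription factor gene of the stroma and the next most abundant, was on the other side of 1 (ratio of means 0.946) and overlapped, *Pdgfra* overlapped (1.05), and *Foxd1*, the gene that carries the Cre insertion, did not (1.13). Summed FPKM of the 4 ureter and smooth muscle markers was 65.6, 79.1 and 72.8 in homozygous, 91.8, 123 and 86.0 in heterozygous and 69.7, 62.9 and 85.0 in wildtype kidneys, with every heterozygous value above every other. Of these, *Actg2*, a smooth muscle actin, was listed at 9.59, 16.3 and 8.24 FPKM in heterozygous and 4.53, 4.06 and 5.55 in homozygous kidneys (limma unadjusted p 0.000175, adjusted p 0.5). *Myh11*, the smooth muscle myosin heavy chain, did not overlap either (ratio of means 0.609), and *Acta2*, the most abundant, overlapped. The part of both sets of markers in the *Hox* values was not tested.

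**Figure D3:**
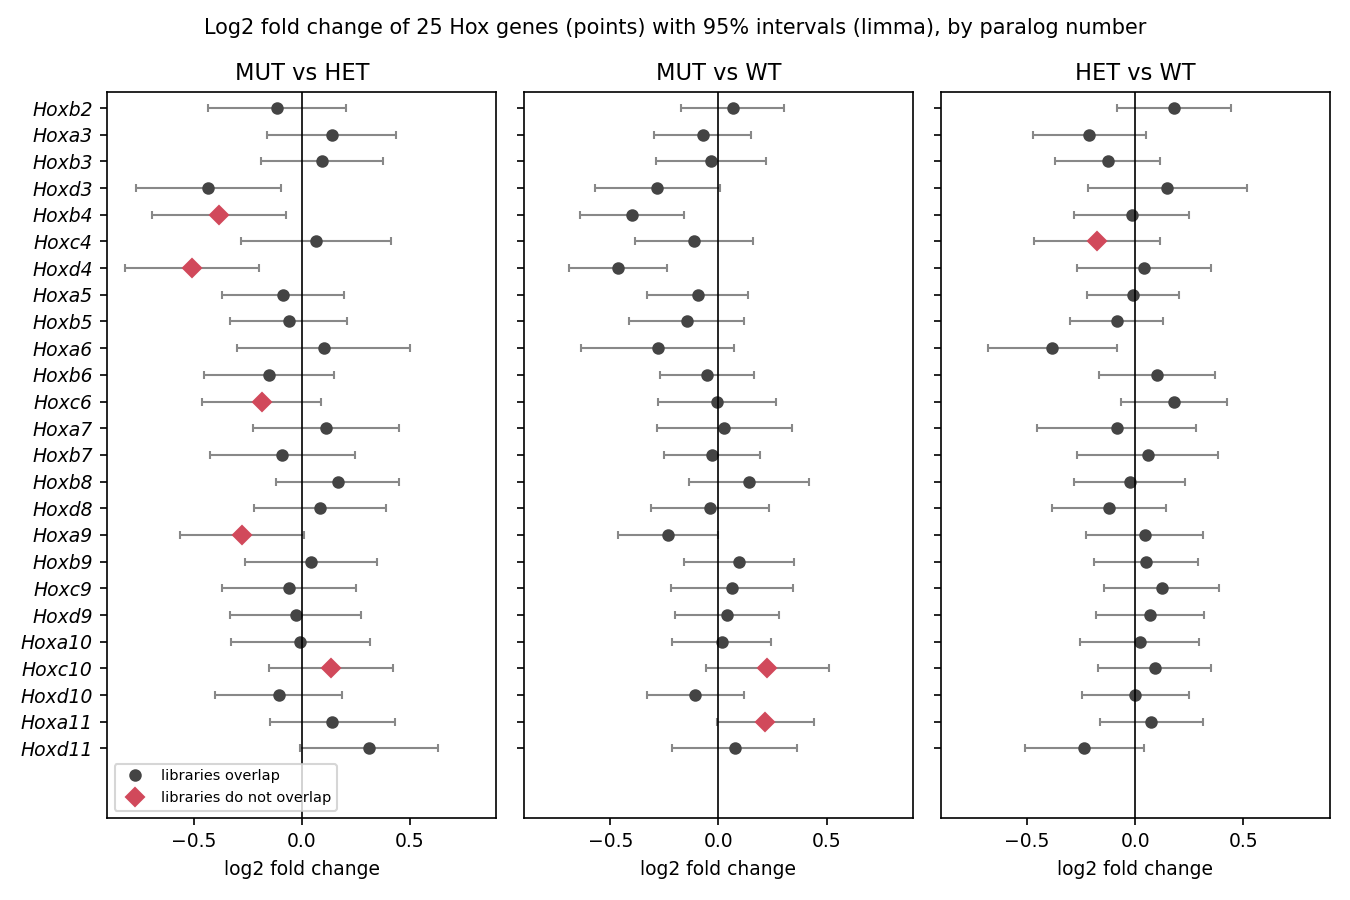
Log2 fold change (x axis, on the log2(FPKM+1) scale) with its 95% interval from limma for the 25 tested *Hox* genes (rows, ordered by paralog number), in homozygous against heterozygous (left), homozygous against wildtype (middle) and heterozygous against wildtype kidneys (right). Red diamonds mark genes whose 3 libraries of one genotype all lie above or all below the 3 of the other. *Hoxd4* and *Hoxb4* lie farthest below 0 of the diamonds in the left panel, at -0.51 and -0.38, and no gene passed an adjusted p of 0.05.

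*Hoxd4*, a gene with an anterior border of expression in the hindbrain and a role in patterning cervical vertebrae, had the smallest unadjusted p. It was listed at 23.9, 24.2 and 25.0 FPKM in heterozygous and 18.2, 12.6 and 20.9 in homozygous kidneys, and at 23.0, 18.5 and 31.0 in wildtype kidneys. The heterozygous values lay close together and above every homozygous value, and the wildtype range covered the heterozygous one and reached into the homozygous one. Its log2 fold change was -0.51 (s.e. 0.144, 95% interval -0.82 to -0.20), with an unadjusted p of 0.00376 and an adjusted p of 0.869 in limma. Without the replicate 2 libraries it was -0.31, without heterozygous replicate 2 alone -0.51 and without heterozygous replicate 3 alone -0.49, the latter pair without the block.

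*Hoxd3*, its neighbor in the cluster, was listed at 19.1, 19.0 and 17.2 FPKM in heterozygous, 17.5, 9.58 and 14.2 in homozygous and 17.7, 12.0 and 21.2 in wildtype kidneys. Homozygous replicate 1 fell within the heterozygous range, so these genotypes overlapped. The log2 fold change was -0.43 (s.e. 0.154, limma unadjusted p 0.0151, adjusted p 0.933), and -0.19 without the replicate 2 libraries. Without the block it was -0.41 with heterozygous replicate 2 left out and -0.48 with heterozygous replicate 3 left out. The deposited table gives *Hoxd3* and *Hoxd4* the same span, chr2:74710044-74748271 on the plus strand (mm10), which also holds *Hoxd3os1* and *Mir10b*. How reads of this shared locus were divided between the genes was left to the authors' transcript assembly, so the levels of *Hoxd3* and *Hoxd4* are uncertain as separate values.

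*Hoxb4*, the paralog of *Hoxd4* in the *Hoxb* cluster, had a span of its own (chr11:96318267-96321638, plus strand). It was listed at 11.9, 10.6 and 10.8 FPKM in heterozygous, 9.21, 6.24 and 9.67 in homozygous and 11.2, 9.33 and 13.4 in wildtype kidneys. The homozygous values were all below the heterozygous ones, and homozygous replicate 3 was above wildtype replicate 2. Its log2 fold change against heterozygous kidneys was -0.38 (s.e. 0.143, limma unadjusted p 0.0188, adjusted p 0.933), and -0.24 without the replicate 2 libraries. With heterozygous replicate 2 or 3 left out, without the block, it was -0.42 and -0.40. The other genes numbered 4 did not share the sign, *Hoxc4* at 0.07 and *Hoxa4* under the minimum with group means of 3.29 FPKM in homozygous and 3.09 in heterozygous kidneys. Summed over the 4 paralogs, the level was 35.1±6.98 FPKM in homozygous, 44.4±1.39 in heterozygous and 45.8±8.10 in wildtype kidneys.

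The promoter windows of these genes, from 250 bases before to 50 bases after a RefSeq transcript start (GRCm38.p6, the mm10 assembly), are shown because *Hoxd4*, *Hoxd3* and *Hoxb4* had the smallest unadjusted p-values in homozygous against heterozygous kidneys, and that of *Hoxd11* because it had the largest difference upward of the 25 tested genes. The sequences run 5′ to 3′ on the plus strand of the chromosome, which is the coding strand of each. Capitals mark the matches, on either strand, to 4 motifs chosen with the values known: AGGTCA, which many nuclear receptors recognize; TGATTNAT, recognized by PBX-HOX pairs; TTTATNG, recognized by posterior HOX proteins; and the TATA box, TATAAA. The last of these, read on the other strand, can share letters with TTTATNG.
Hoxd3, chr2:74711743-74712042: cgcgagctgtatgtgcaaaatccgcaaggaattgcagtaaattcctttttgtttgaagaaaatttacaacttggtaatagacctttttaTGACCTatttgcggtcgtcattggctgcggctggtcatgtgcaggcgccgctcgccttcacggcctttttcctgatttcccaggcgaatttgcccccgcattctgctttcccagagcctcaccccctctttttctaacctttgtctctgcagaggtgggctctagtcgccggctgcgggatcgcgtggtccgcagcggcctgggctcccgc
Hoxd4, chr2:74721728-74722027: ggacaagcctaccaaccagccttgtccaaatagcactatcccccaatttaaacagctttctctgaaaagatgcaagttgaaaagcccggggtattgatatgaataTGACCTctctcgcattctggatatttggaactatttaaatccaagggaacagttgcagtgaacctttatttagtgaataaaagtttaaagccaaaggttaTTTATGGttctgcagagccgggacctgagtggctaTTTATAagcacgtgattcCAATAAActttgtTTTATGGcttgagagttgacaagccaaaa
Hoxb4, chr11:96318017-96318316: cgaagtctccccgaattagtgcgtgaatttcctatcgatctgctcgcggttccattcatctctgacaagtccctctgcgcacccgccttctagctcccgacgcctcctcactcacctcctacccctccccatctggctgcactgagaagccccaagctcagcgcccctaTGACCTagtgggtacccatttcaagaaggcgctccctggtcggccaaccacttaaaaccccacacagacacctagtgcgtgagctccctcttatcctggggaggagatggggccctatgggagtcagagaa
Hoxd11, chr2:74682073-74682372: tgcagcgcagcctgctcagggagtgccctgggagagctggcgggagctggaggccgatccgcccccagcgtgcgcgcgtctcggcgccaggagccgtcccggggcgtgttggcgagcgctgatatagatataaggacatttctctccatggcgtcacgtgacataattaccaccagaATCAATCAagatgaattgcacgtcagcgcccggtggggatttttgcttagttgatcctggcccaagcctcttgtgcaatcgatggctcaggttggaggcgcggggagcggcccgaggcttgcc
AGGTCA was found once each in the windows of *Hoxd3*, *Hoxd4* and *Hoxb4*, in each case as TGACCT on the strand printed. Over all windows it was present in 7 of 24 *Hox* windows (22 of the 39 genes had a window) and in 16.3% of 32851 windows of the mouse. The *Hoxd4* window also held TTTATNG at 3 places and TATAAA, read on the other strand, at 1. TTTATNG was present in 2 of the 24 *Hox* windows and 10.9% of all, and TATAAA in 4 and 13.6%. The *Hoxd11* window held TGATTNAT, present in 2 of the 24 and 3.22% of all windows, while the window of another *Hoxd11* start and that of *Hoxa11* held none of the motifs. These matches describe the letters of the windows, and no binding was measured.

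*Hoxd11* and *Hoxa11* lay on the other side. The log2 fold change of *Hoxd11* in homozygous against heterozygous kidneys was 0.31 (s.e. 0.147, 95% interval -0.01 to 0.63, limma unadjusted p 0.0544, adjusted p 0.933). Heterozygous replicate 3, at 28.6 FPKM, was above homozygous replicate 3. With the libraries of replicate 1, 2 or 3 left out the value was 0.24, 0.19 and 0.51 (limma adjusted p 1, 1 and 0.0895), and with heterozygous replicate 2 or 3 alone left out, without the block, it was 0.22 and 0.44. *Hoxa11* had a log2 fold change of 0.14 (s.e. 0.134), which was 0.24, 0.065 and 0.12 with the libraries of replicate 1, 2 or 3 left out. It was 0.12 without heterozygous replicate 2 and 0.11 without heterozygous replicate 3, in fits without the block. It shares its span, chr6:52242105-52249769, with the antisense transcript *Hoxa11os*, and the use of strand in counting is not given in the sources used here, so reads of the pair may not have been separated. *Hoxc10*, a posterior gene, was listed at 37.7, 35.9 and 33.4 FPKM in heterozygous, 41.1, 38.2 and 38.4 in homozygous and 37.6, 36.8 and 26.8 in wildtype kidneys. Its homozygous values were above all others, with log2 fold changes of 0.14 against heterozygous and 0.23 against wildtype kidneys and unadjusted p-values of 0.324 and 0.1 in limma. Against wildtype kidneys it was 0.09 without the replicate 3 libraries, whose wildtype member had the lowest of the 9 values.

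*Hoxa9* was listed at 32.9, 31.1 and 29.8 FPKM in heterozygous, 27.9, 22.0 and 27.4 in homozygous and 29.8, 26.8 and 34.7 in wildtype kidneys. The homozygous values were below every heterozygous value, and overlapped the wildtype ones. Its log2 fold change against heterozygous kidneys was -0.28 (s.e. 0.133, limma unadjusted p 0.0572, and 0.0377 without the block). With the libraries of replicate 1, 2 or 3 left out it was -0.30, -0.18 and -0.36. *Hoxc6* did not overlap either, at 14.2, 11.9 and 11.7 FPKM in heterozygous and 11.1, 11.1 and 10.6 in homozygous kidneys, with a log2 fold change of -0.19, or -0.11 without the replicate 1 libraries. Of the 14 *Hox* genes under the minimum, 4 had homozygous values all below the heterozygous ones, among them *Hoxc8*, *Hoxc5* and *Hoxd13*, and 0 had them all above, against 6.55% and 2.54% of the 9141 low loci listed above 0. Among them, *Hoxc5* had means of 2.96±0.407 FPKM in homozygous and 4.01±0.245 in heterozygous kidneys.

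**Figure D4:**
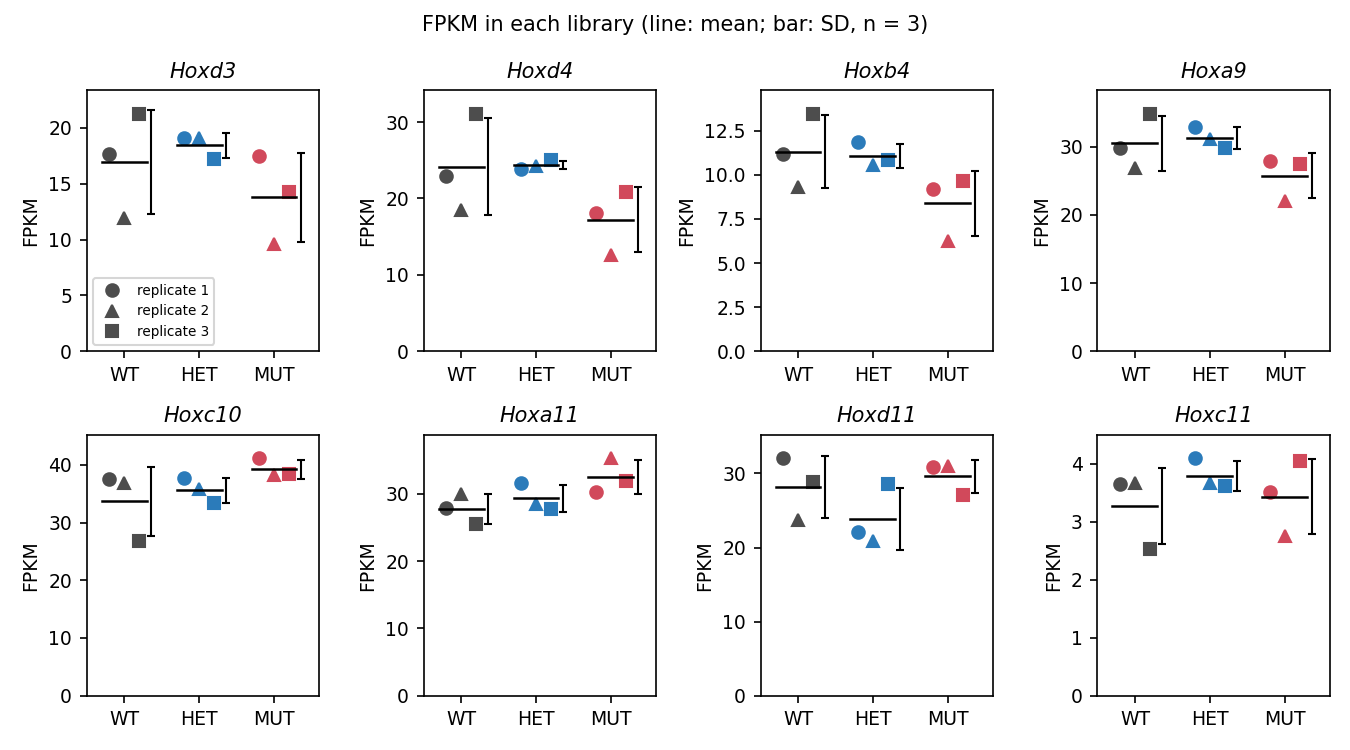
FPKM (y axis, from 0) of 8 *Hox* genes in each library by genotype (WT, wildtype; HET, heterozygous; MUT, homozygous), with marker shape giving the replicate, horizontal lines the mean and bars the s.d. (n=3). *Hoxd4*, *Hoxb4* and *Hoxa9* are lower in all homozygous than in all heterozygous kidneys, *Hoxc10* is higher, and homozygous replicate 2 has the lowest value of *Hoxd3*, *Hoxd4*, *Hoxb4* and *Hoxa9*.

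Homozygous replicate 2 held the lowest value of the 9 libraries for 10 of the 25 tested members, *Hoxd3*, *Hoxd4*, *Hoxb4*, *Hoxc4*, *Hoxa5*, *Hoxb5*, *Hoxb6*, *Hoxa9*, *Hoxc9* and *Hoxd10*, and the highest for *Hoxa11*. The share of all loci at their highest or lowest in each library was not counted, so such counts cannot be called particular to *Hox* genes. The same library had the highest summed level of 4 urothelium markers, 28.1 FPKM against a median of 16.9. Without *Upk3a*, the most abundant of them, heterozygous replicate 2 was highest, at 7.87 FPKM against 7.78 in homozygous replicate 2. Podocyte markers without *Podxl* (30.3 FPKM) and proximal tubule markers without *Slc34a1* (43.2 FPKM) were highest in homozygous replicate 2. With those genes included, wildtype replicate 1 was highest for both. The part of these markers in the *Hox* values was not tested. Wildtype replicate 3 held the highest value for 6 members, among them *Hoxd3*, *Hoxd4*, *Hoxb4* and *Hoxa9*, and the lowest for 6 others, among them *Hoxc10* and *Hoxa11*. The genes that were low in homozygous replicate 2 were therefore in part those that were high in wildtype replicate 3, while the reverse held for *Hoxa11*. Wildtype replicate 1 and heterozygous replicate 1 also held the highest value for 6 other members each, and the lowest for 0.

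In homozygous against wildtype kidneys, which differ in Cre, *Foxd1* and *Ntn1* together, no *Hox* gene passed the test either. *Hoxd4* (log2 fold change -0.47, s.e. 0.0934, limma unadjusted p 0.00208, adjusted p 0.995) and *Hoxb4* (-0.40, s.e. 0.0996, unadjusted p 0.00615) had the lowest ratios of means of the 25 tested genes, 0.712 and 0.741, and both overlapped between the genotypes. *Hoxa9* was at -0.23 (unadjusted p 0.0476) and *Hoxa11* at 0.22 (unadjusted p 0.0558). No locus of 10096 passed an adjusted p of 0.05 in limma (background 0%, smallest adjusted p 0.949), and the 3 *Hox* genes with an unadjusted p under 0.05, all lower, stood beside shares of 1.12% of all loci lower and 0.872% higher. Without the replicate block, 1 *Hox* gene, *Hoxb4*, had a limma unadjusted p under 0.05 (0.0495). Those of *Hoxd4*, *Hoxa9* and *Hoxa11* were then 0.0531, 0.132 and 0.107 in limma. Ratios of means past 1.2-fold were found for 4 *Hox* genes downward (*Hoxd4*, *Hoxd3*, *Hoxb4* and *Hoxa6*, in 3 spans) and 0 upward (2.88% and 1.85% of all loci). The log2 fold changes of *Hoxd3* and *Hoxa6* were both -0.28 with all libraries, and -0.15 and -0.085 without the replicate 3 libraries. Libraries did not overlap for *Hoxc10* and *Hoxa11*, both higher in homozygous kidneys (share of all loci 1.32%), and for 0 that were lower (1.34%). The mesenchymal gene *Six2* (log2 fold change 0.38, limma unadjusted p 0.0652) and the stromal marker *Col1a1* (ratio of means 1.30) were likewise higher in homozygous kidneys without overlap, while the nephron progenitor markers *Cited1*, *Eya1* and *Meox1* overlapped. The endothelial marker *Pecam1* (0.90) and *Foxd1* (0.771) were lower without overlap, and *Tbx18* of the ureter list (1.27) and the glial gene *Sox10*, at a mean of 0.219 FPKM, were higher. The part of these markers in the *Hox* values was not tested. Under the minimum, *Hoxc13* did not overlap, lower at levels below 0.1 FPKM, as 4.92% of low loci were lower and 3.4% higher. The median log2 fold change was -0.03 over the 25 genes and -0.00 over all loci, with 10 of the 25 above 0, beside 4912 of the 10096 loci. Without the replicate 2 libraries *Hoxd4* passed the test at -0.44 (limma adjusted p 0.0425), in a fit that called 168 loci.

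In heterozygous against wildtype kidneys, which differ in Cre, 1 *Foxd1* allele and 1 stromal *Ntn1* allele, no *Hox* gene passed the test, and 1 had an unadjusted p under 0.05 where the other comparisons had 3 each. The smallest unadjusted p-values were those of *Hoxa6* (log2 fold change -0.38, s.e. 0.129, unadjusted p 0.0178), *Hoxd11* (-0.23, s.e. 0.12, p 0.0849) and *Hoxa3* (-0.21, s.e. 0.113, p 0.0982), and the adjusted p of each was 0.994 in limma. Without the replicate 1 libraries the fold changes of these 3 genes were -0.27, -0.095 and -0.09. Without heterozygous replicate 2 alone they were -0.25, -0.15 and -0.15, and without heterozygous replicate 3 alone -0.55, -0.37 and -0.24, in fits with no block. *Hoxa11* was at 0.07 with all libraries, and at 0.09 and 0.11 in the latter 2 fits. No locus of 10105 passed an adjusted p of 0.05 (background 0%, smallest adjusted p 0.156), and *Hoxa6* alone of the *Hox* genes had an unadjusted p under 0.05, where 1.36% of all loci were lower and 0.95% higher by that measure. It was also the only one with a ratio of means past 1.2-fold, downward (4.26% of all loci downward, 1.95% upward). Without the replicate block the limma unadjusted p of *Hoxa6* was 0.0933, and 0 *Hox* genes had one under 0.05. *Hoxa6* was listed at 9.45, 5.92 and 10.1 FPKM in wildtype, 5.80, 4.92 and 7.98 in heterozygous and 8.98, 5.44 and 5.96 in homozygous kidneys, with overlap in every pair. *Hoxa3*, at 14.1, 9.07 and 10.5 FPKM in wildtype, 9.99, 8.48 and 9.75 in heterozygous and 13.3, 9.21 and 9.22 in homozygous kidneys, overlapped likewise. *Hoxc4* was the only tested member without overlap, lower in heterozygous kidneys (5.83±0.228 against 6.74±0.479 FPKM, as 1.06% of all loci were lower and 2.15% higher). Under the minimum, 2 members, *Hoxd13* among them and both below 1 FPKM, were higher in all heterozygous kidneys than in all wildtype ones, as 4.85% of low loci were, while 3.2% were lower. The median log2 fold change was 0.02 over the *Hox* genes and 0.01 over all loci. In heterozygous kidneys 2 of 4 tested liver markers and 2 of 3 tested ureter and smooth muscle markers were higher without overlap. Without *Afp*, liver markers summed to 4.47, 384 and 7.02 FPKM in heterozygous and 2.39, 2.96 and 3.48 in wildtype kidneys. *Osr1* was also higher without overlap (ratio of means 1.29, limma unadjusted p 0.00648), and *Foxd1* was lower. The part of these genes in the *Hox* values was not tested.

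*Hoxa3* to *Hoxa6* share 1 span in the table, chr6:52165674-52213597 on the minus strand, with the antisense genes *Hoxaas2* and *Hoxaas3*, and their separate levels are uncertain in the same way as those of *Hoxd3* and *Hoxd4*. In that span *Hoxa5* was listed at 19.4, 16.6 and 17.6 FPKM in wildtype, 18.1, 17.5 and 17.5 in heterozygous and 19.5, 13.6 and 17.3 in homozygous kidneys. *Hoxa4* was listed at 3.80, 3.58 and 3.38 FPKM in wildtype, 3.68, 2.45 and 3.14 in heterozygous and 3.82, 2.95 and 3.09 in homozygous kidneys. Both overlapped between all genotypes. *Hoxb5* and *Hoxb6* share the span chr11:96291037-96306910 with the antisense *Hoxb5os*. *Hoxb5* was listed at 17.3, 15.6 and 16.6 FPKM in wildtype, 17.6, 13.7 and 15.3 in heterozygous and 17.0, 11.6 and 16.4 in homozygous kidneys. *Hoxb6* was listed at 45.3, 37.2 and 44.5 FPKM in wildtype, 49.4, 44.9 and 41.9 in heterozygous and 43.0, 36.7 and 42.6 in homozygous kidneys, again with overlap. *Hoxc5*, which shares its span with *Mir615*, was listed at 3.94, 3.24 and 4.94 FPKM in wildtype, 4.24, 3.75 and 4.04 in heterozygous and 2.95, 2.55 and 3.37 in homozygous kidneys, and the homozygous values overlapped only those of wildtype kidneys.

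The TALE homeodomain proteins PBX, MEIS and PKNOX bind DNA together with HOX proteins, and 7 of their 9 genes were tested. None passed the test in any comparison. In homozygous against heterozygous kidneys 6 were above and 1 below 0, where 4631 of all 10081 tested loci were above 0. *Meis2* was listed at 46.6, 47.0 and 52.5 FPKM in heterozygous and 55.5, 49.1 and 52.1 in homozygous kidneys, a log2 fold change of 0.10 (s.e. 0.14, limma unadjusted p 0.489), and these values overlapped. *Pbx2* was the tested member of the list without overlap, at 48.7, 47.9 and 46.9 FPKM in heterozygous and 53.3, 50.8 and 50.7 in homozygous kidneys (log2 fold change 0.11, unadjusted p 0.45). The list's median log2 fold change was 0.02.

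Of 10 genes known to act with the paralogs numbered 11, or under them, in the metanephric mesenchyme and ureteric bud, 9 were tested and none passed. In homozygous against heterozygous kidneys 7 were above and 2 below 0, with a median of 0.08, beside 4631 of all 10081 loci above 0. *Pax2*, a transcription factor in a complex with EYA1 and the HOX proteins numbered 11, had the smallest unadjusted p. It was listed at 47.6, 36.2 and 48.8 FPKM in heterozygous, 68.6, 43.9 and 62.6 in homozygous and 63.2, 56.8 and 37.0 in wildtype kidneys. Homozygous replicate 2 fell within the heterozygous range. The log2 fold change was 0.38 (s.e. 0.14, limma unadjusted p 0.0178, adjusted p 0.933). *Six2*, which keeps nephron progenitors undifferentiated, was the highest at 86.2 FPKM, with a log2 fold change of 0.18. *Gdnf*, the ligand of RET from the mesenchyme, was at 0.08 and *Ret* at 0.04.

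Chromatin regulators that keep *Hox* clusters silent or active gave 23 tested genes of 28. In homozygous against heterozygous kidneys 15 were above and 8 below 0, with a median of 0.03, and none passed. Of all 10081 loci, 4631 were above 0. *Kdm6b*, a demethylase that removes the Polycomb mark on histone H3, was listed at 10.6, 8.84 and 12.6 FPKM in heterozygous and 20.0, 14.0 and 16.0 in homozygous kidneys, without overlap. Its log2 fold change was 0.59 (s.e. 0.135, limma unadjusted p 0.000759, adjusted p 0.642), and in wildtype kidneys it was listed at 18.5, 14.2 and 10.5 FPKM. *Kmt2b*, a methyltransferase of the trithorax group, had a log2 fold change of 0.34 (unadjusted p 0.0326). *Rbbp5*, a core subunit of such methyltransferases, was lower in all homozygous than in all heterozygous kidneys (ratio of means 0.854, unadjusted p 0.0956), and *Dpy30*, another shared subunit, was the highest at 104 FPKM with -0.15. The 13 tested Polycomb genes had a median of 0.05, 9 above and 4 below 0. *Cdx1*, *Cdx2* and *Cdx4*, activators of central *Hox* genes in the early embryo, had means of at most 0.154 FPKM.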

How the data were processed

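Whole E15.5 kidneys were sequenced by the authors as poly(A) libraries made with a stranded mRNA kit. The authors used STAR for alignment and Cufflinks with Cuffmerge for assembly, and the deposited FPKM values are those of CuffDiff (mm10, per the submitters' processing notes). Tool versions and the annotation are not given in the sources used here. Read counts were not used here. The smallest FPKM steps gave depths relative to wildtype replicate 1 of 0.57 (wildtype replicate 2) to 1.28 (homozygous replicate 1), with homozygous replicate 3 at 0.614, so low values are less precise in the shallower libraries. FPKM summed to between 453753 and 545598 per library.

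limma 3.58.1 (R 4.3.3; lmFit, eBayes with a trend) was run on log2(FPKM+1) of the loci whose mean reached 5 FPKM in one or both genotypes, using the 6 libraries compared, blocked on replicate number. The study's methods do not state a paired test, and the block was taken from its listed P values, which a one-sided paired test of same-numbered libraries gives. Tests were two-sided, Benjamini-Hochberg adjusted over all loci, with a threshold of 0.05. The deviations of same-numbered libraries from their group means had a mean correlation of -0.0207 over 9 pairs, against 0.0102 over 18 differently numbered pairs, so the numbers did not pair the libraries in the data. The study names 3 crosses and 3 kidneys of each genotype, without tying a replicate to a cross, and p-values measure only the spread between these libraries.

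Members, lists and motifs were chosen with earlier results of these data known. Full values were given for the paralogs numbered 11, the highest member of each cluster, the 3 tested members with the smallest unadjusted p in each comparison and members with shared spans; from each other list the highest gene and that with the smallest p in homozygous against heterozygous kidneys were named. Genes named beyond these were chosen after their values were seen. Of the 39 *Hox* loci, 39 overlapped their GENCODE gene. Protein sequences were not used here. Some genes that the rules above would name are not reported here.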

Additional observations from a re-analysis of the deposited data

How the results depend on the processing

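The 11 alternatives chosen at the start (pseudocounts of 0.1 and 3, a minimum of 1 FPKM or none, median-ratio rescaling, all 9 libraries in 1 fit, no block, no trend, and leaving out each replicate number) and the 3 added after seeing the data (a GC correction with the replicate block, and heterozygous replicate 2 or 3 left out without it) left the count of *Hox* genes past the threshold at 0 in homozygous against heterozygous and in heterozygous against wildtype kidneys. In homozygous against wildtype kidneys it ranged from 0 to 1 with each replicate number left out, the 1 being *Hoxd4* without replicate 2. With each replicate number left out, loci past the threshold ranged from 30 to 148, 1 to 168 and 1 to 125 in the comparisons of homozygous with heterozygous, homozygous with wildtype and heterozygous with wildtype kidneys (0 in each with all libraries). These fits hold 1 residual degree of freedom. Without heterozygous replicate 3, 1 locus passed in heterozygous against wildtype kidneys. *Hox* genes without overlap (5, 2 and 1 of 25 with all libraries, beside 9.69%, 2.65% and 3.21% of all loci) ranged with each replicate number left out from 8 to 14, 4 to 12 and 3 to 9. Groups of fewer libraries overlap less often, so each count is paired with the share of all loci in its fit. Without replicates 1, 2 and 3 in turn, these were 10 (24.7%), 8 (21%) and 14 (58.8%) in homozygous against heterozygous kidneys. In homozygous against wildtype kidneys they were 4 (27.3%), 12 (19.7%) and 6 (16.2%). In heterozygous against wildtype kidneys they were 3 (20%), 8 (17.6%) and 9 (43.2%). With no FPKM minimum the counts were 9 of 39 in homozygous against heterozygous and 3 of 39 in both comparisons with wildtype kidneys (9.41%, 5.33% and 5.5% of all loci). Without heterozygous replicate 3 they were 10 in homozygous against heterozygous and 5 in heterozygous against wildtype kidneys (35.7% and 30.8% of all loci), and without heterozygous replicate 2 there were 2 in the latter comparison (4.68%). *Hoxd11* in homozygous against wildtype kidneys ranged from -0.072 (without replicate 2) to 0.16 with each replicate number left out, against 0.08 with all, and the cause was not tested. Without the replicate block, 0 loci passed in any comparison, and *Hox* genes with an unadjusted p under 0.05 numbered 5, 1 and 0, beside 636, 65 and 108 of all loci, in homozygous against heterozygous, homozygous against wildtype and heterozygous against wildtype kidneys. The summed level of each cluster moved by less than its spread. Depth limits the members under 5 FPKM, which were given by their values.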

Other observations

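Of 33 names of noncoding RNAs within the *Hox* clusters and of genes next to them, 29 were found and 13 were tested, and none passed the test in any comparison. In homozygous against heterozygous kidneys 5 were above and 8 below 0, with a median log2 fold change of -0.03, beside 4631 of all 10081 loci above 0. Among the noncoding RNAs, *Hoxa11os* was highest at 21.0 FPKM, beside 29.9 for *Hoxa11*, and *Hoxb5os* followed at a mean of 18.0 FPKM, beside 15.7 for *Hoxb5*, with overlapping ranges. Each of these antisense RNAs shares a span with its *Hox* gene, and their separate levels are uncertain. *Hotairm1* of the *Hoxa* cluster was listed at 4.19 FPKM, and *Hotair* of the *Hoxc* cluster at 0.267. *Hottip*, at the *Hoxa13* end, was listed at 0.00466 FPKM, and *Evx2*, next to *Hoxd13*, at 0 in all 9 libraries. *Hnrnpa2b1*, an RNA-binding protein gene near the *Hoxa* cluster, was the highest of the list at 465 FPKM. *Ube2z*, a ubiquitin-conjugating enzyme gene near the *Hoxb* cluster, had the smallest unadjusted p. It was listed at 36.6, 35.9 and 35.0 FPKM in heterozygous and 45.8, 48.0 and 38.8 in homozygous kidneys, with a log2 fold change of 0.29 (s.e. 0.136, limma unadjusted p 0.0522, adjusted p 0.933).

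The hairpin loci *Mir10a*, *Mir10b*, *Mir196a-2*, *Mir196b* and *Mir615* were listed at 0 in all 9 libraries. *Mir196a-1* was listed at 73.3 FPKM in heterozygous replicate 3, at 22.1 in homozygous replicate 1 and at 0 in the other 7.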
